A study of Mus musculus with 5 samples.

Results

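The Gimap genes encode GTPases of immunity-associated proteins, and 8 of the 2926 mouse genes measured in T cells sorted from the stroke brain belonged to this family. They were taken as every gene whose symbol begins with Gimap, which gave Gimap1, Gimap3, Gimap4, Gimap5, Gimap6, Gimap7, Gimap8 and Gimap9. All mice were wildtype C57BL/6 and all had a photothrombotic stroke, in which light acting on an injected dye clots the vessels of the cortex. Trained mice (3 samples) ran on wheels from day 2, untrained mice (2 samples) did not, and both groups were killed on day 14 and the ipsilateral hemisphere taken. CD3+ cells were sorted singly into plates of 384 wells for SORT-seq, a plate-based method of single-cell RNA sequencing. The age and sex of the mice, and whether each plate held cells of 1 animal or of several, were not given in the sources used here. P-values therefore measure the spread between these 5 samples, which may be technical.

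GIMAP proteins are small GTPases found mainly in lymphocytes, where they sit on intracellular membranes and bear on survival and quiescence. Gimap1 is needed in mice for mature T and B cells to persist. Gimap5 is needed for peripheral T cells to survive and stay quiescent, and its loss causes the lymphopenia of the BB rat. Gimap3, a close relative of Gimap5, has been reported in mice to bind proteins of the Bcl-2 family and to influence which mitochondrial DNA variant blood cells keep. Gimap4 is linked to the pace of T cell death. Gimap6 binds Gabarapl2, a member of the ATG8 family that decorates autophagosomes. Gimap8 carries several copies of the GTPase domain.

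The genes lie side by side on chromosome 6. In the RefSeq annotation of GRCm38.p6 the order is Gimap8, Gimap9, Gimap4, Gimap6, Gimap7, Gimap1, Gimap5 and Gimap3, with Gimap6 and Gimap3 on the minus strand and the others on the plus strand. In the GENCODE M21 annotation the gene Gm28053 runs on the same strand across Gimap7, Gimap1 and Gimap5, and the antisense transcript Gimap1os overlaps Gimap1. Neither was among the genes measured, and how the authors' counting treated strand and shared reads is not stated there or in the labels. The values of Gimap1, Gimap5 and Gimap7 are uncertain to that extent, and those of Gimap3 and Gimap5 also because the 2 are close paralogs.

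The 250 bases before the start site are shown for the pair of genes that varied together most (Gimap3 and Gimap6) and for the gene that ran against the rest (Gimap1). The sequences are from RefSeq on GRCm38.p6, each written 5′ to 3′ on the strand of its gene. Gimap3 lies at chr6:48770852-48771101 (minus strand), Gimap6 at chr6:48708245-48708494 (minus strand) and Gimap1 at chr6:48738797-48739046 (plus strand). Capitals mark matches, on either strand, to 5 short motifs bound by factors of lymphocytes or of the basal machinery.
Gimap3: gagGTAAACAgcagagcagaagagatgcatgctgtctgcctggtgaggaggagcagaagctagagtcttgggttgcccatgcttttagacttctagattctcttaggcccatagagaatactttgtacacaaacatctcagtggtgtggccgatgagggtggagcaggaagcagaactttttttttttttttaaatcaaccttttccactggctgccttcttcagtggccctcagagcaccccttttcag
Gimap6: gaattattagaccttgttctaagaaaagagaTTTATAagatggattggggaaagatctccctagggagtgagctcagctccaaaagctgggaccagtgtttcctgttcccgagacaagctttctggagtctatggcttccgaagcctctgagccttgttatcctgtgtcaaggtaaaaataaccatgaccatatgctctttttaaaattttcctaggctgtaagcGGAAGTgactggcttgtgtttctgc
Gimap1: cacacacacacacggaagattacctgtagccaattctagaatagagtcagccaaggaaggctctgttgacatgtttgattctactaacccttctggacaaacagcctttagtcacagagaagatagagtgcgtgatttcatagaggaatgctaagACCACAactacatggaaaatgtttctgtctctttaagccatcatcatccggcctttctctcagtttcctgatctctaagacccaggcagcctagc

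The motifs were the ETS core GGAAGT, the RUNX core TGTGGT, the TCF/LEF core CTTTGA, the FOXO core TGTTTAC and the TATA box TATAAA, searched on both strands, and no matches overlapped in the 3 sequences shown. Gimap3 held a FOXO core starting at position -247, Gimap6 an ETS core at -25 and a TATA box at -219, and Gimap1 a RUNX core at -95, counted back from the start site. Over the family, 2 of the 8 genes held the ETS core (Gimap5 and Gimap6), against 19.7% of 32851 mouse promoter windows of the same length. The RUNX core was held by 3 of the 8 (Gimap1, Gimap4 and Gimap7), against 14.0% of windows, and the FOXO core by Gimap3 alone, against 3.17% of windows. The TCF/LEF core, held by 13.8% of windows, was in none of the 8, and the TATA box, held by 12.4%, was in Gimap6 alone. These matches describe the letters only.

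The table held 692 cells, with between 66 and 168 in each of the 3 trained samples, and 144 and 190 in untrained samples 1 and 2. Its entries are not counts: they ran from -2.12 to 3.74, and 72.9% of them lay below 0. They are called scores here, and a difference is a difference of scores, with no fold change and no depth behind it. A cell's T cell marker score was the mean of Cd3e, Cd3d, Cd3g, Cd2, Cd247, Lck and Thy1. It was above 0 in 56.1%, 56.5% and 53.6% of the cells of trained samples 1, 2 and 3, and in 54.2% and 36.8% of those of untrained samples 1 and 2. Over all samples 49.9% of cells were T marker-positive and 50.1% T marker-negative. Because most scores of the table lie below 0, a marker score of 0 or less marks a cell with lower T cell marker scores than others and does not show that it lacked CD3. The noncoding transcripts Kcnq1ot1 and A630089N07Rik were high (mean score above 1) in 2.61% of the T marker-positive cells and in 47.8% of the T marker-negative cells. A further set of 67 cells had a mean score above 0.5 for 8 myeloid genes, and 42 of these cells were in untrained sample 2. Wells carry the same names on every plate, and 66.8% of the well names occurred in more than 1 sample and 3 names in all 5.

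Most Gimap genes went with the T cell markers and Gimap1 went against them. Of the 8 genes, 7 rose and Gimap1 fell in T marker-positive cells relative to T marker-negative cells of the same samples. This was tested with limma on the mean score per gene, sample and class, with the sample as a block, and the threshold was an adjusted p of 0.05. The background is broad: 88.8% of the 2919 genes tested passed, 83.2% higher and 5.55% lower, with a median difference over all genes of 0.203. The 7 higher members are thus close to the share of all genes that were higher. How many of all genes had classes whose sample means did not overlap was not counted, so non-overlap below only describes each member. The T cell marker score itself followed the mean score of all genes in a cell, with a Pearson correlation of 0.784 averaged over the 5 samples. When each cell's mean over all genes was subtracted, 49.4% of genes passed, 25.1% higher and 24.3% lower. On that scale Gimap3, Gimap4, Gimap6, Gimap7, Gimap8 and Gimap9 were still higher, Gimap1 was lower, and Gimap5 turned to -0.047 and did not pass.

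Gimap4, the member linked to T cell death, had the largest difference of the 8. Its mean score in T marker-positive cells was 0.422, 0.540 and 0.423 in trained samples 1, 2 and 3 and 0.222 and 0.543 in untrained samples 1 and 2. In T marker-negative cells the means in the same order were -0.375, -0.254, -0.324, -0.157 and -0.316. The classes did not overlap, and the difference was 0.715 ± 0.062 (SE; limma adjusted p = 6.00e-06), higher in 5 of 5 samples.

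Gimap3, reported to bind proteins of the Bcl-2 family, had means of 0.332, 0.390 and 0.333 in T marker-positive cells of trained samples 1, 2 and 3. In those of untrained samples 1 and 2 its means were 0.246 and 0.657. Its means in T marker-negative cells in the same order were -0.226, -0.245, -0.252, -0.212 and -0.386. Untrained sample 2 stood highest in one class and lowest in the other, and the classes did not overlap. The difference was 0.656 ± 0.070 (SE; limma adjusted p = 1.91e-05).

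Gimap6, the partner of Gabarapl2, had means of 0.284, 0.314 and 0.206 in T marker-positive cells of trained samples 1, 2 and 3, and of 0.144 and 0.480 in those of untrained samples 1 and 2. Its means in T marker-negative cells in the same order were -0.326, -0.312, -0.237, -0.082 and -0.30. The classes did not overlap, and the difference was 0.537 ± 0.067 (SE; limma adjusted p = 4.60e-05). The share of cells with a Gimap6 score above 0 was between 45.7% and 60% in T marker-positive cells and between 8.33% and 31.8% in T marker-negative cells. In untrained sample 2 the median Gimap6 score of T marker-positive cells was -0.283, below 0, although the mean was the highest of the 5 samples.

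Gimap9, Gimap7 and Gimap8 rose as well, by 0.427 ± 0.041, 0.410 ± 0.061 and 0.291 ± 0.030 (SE), each higher in 5 of 5 samples with no overlap of the classes. Gimap8 varied little between samples: its means ran from 0.165 to 0.266 in T marker-positive cells and from -0.125 to -0.034 in T marker-negative cells. Gimap5, the quiescence factor, rose by 0.162 ± 0.051 (SE; limma adjusted p = 0.0131), below the median difference of all genes, and was higher in 4 of 5 samples. Its means in T marker-positive cells were -0.010, 0.17 and 0.097 in trained samples 1, 2 and 3 and -0.075 and 0.135 in untrained samples 1 and 2, and those in T marker-negative cells ran from -0.181 to -0.033. The classes overlapped for Gimap5, and untrained sample 1 went the other way. Without trained sample 2 the adjusted p of Gimap5 was 0.0591.

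Gimap1, the gene needed for mature lymphocytes to persist, fell. Its mean score in T marker-positive cells was -0.183, -0.236 and -0.177 in trained samples 1, 2 and 3 and -0.239 and -0.044 in untrained samples 1 and 2. In T marker-negative cells the means in the same order were 0.235, 0.345, 0.276, 0.169 and 0.026. The classes did not overlap, and untrained sample 2 had the smallest difference between them. The difference of means was -0.386 ± 0.061 (SE; limma adjusted p = 0.000207), lower in 5 of 5 samples, and ranked 2842 of 2919 genes from the highest. Medians were also lower in T marker-positive cells, except in untrained sample 2. There they were -0.299 in T marker-positive and -0.455 in T marker-negative cells, with 32.9% and 33.3% of cells above 0.

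**Figure D1:**
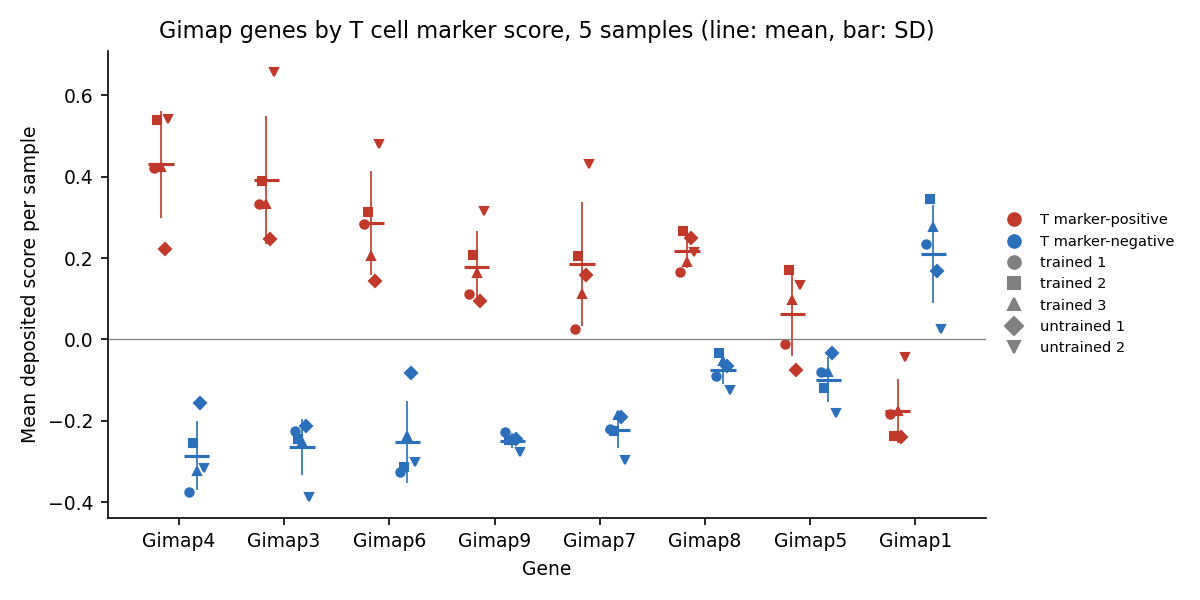
Mean deposited score (y axis) of the 8 Gimap genes (x axis) in T marker-positive (red) and T marker-negative cells (blue), with 1 point per sample, a line at the mean and a bar for the SD over 5 samples. The red points lie above the blue ones for every gene but Gimap5, where they overlap, and Gimap1, where they lie below.

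Cell by cell the same order held. A T marker-positive cell scored above 0 for 2.95 to 4.26 of the 7 genes other than Gimap1 on average, depending on the sample, and a T marker-negative cell for 0.742 to 1.76 of them. Among 2919 genes ranked by their correlation with the T cell marker score over cells, Gimap4 (mean r 0.549) stood at percentile 97.1, Gimap3 (0.524) at percentile 96.3 and Gimap6 (0.464) at percentile 94.2. Gimap9 (0.402) stood at percentile 90.1, Gimap7 (0.394) at 89, Gimap8 (0.264) at 58, Gimap5 (0.188) at 34 and Gimap1 (-0.327) at 3.12. The median gene had a correlation of 0.240, so Gimap5 lay below it and Gimap8 near it. These correlations were computed over the cells of each sample and averaged over the 5 samples, and the cells of a sample share its library and the offset between cells described above.

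The genes did not all change over the same range of the T cell marker score. The 692 cells were divided into 5 ranges of that score, with at least 9 cells of each sample in every range. From the lowest range to the highest, the mean of the 7 other genes was -0.286, -0.054, 0.109, 0.266 and 0.351. Gimap3 was -0.393, -0.015, 0.169, 0.377 and 0.561 over the same ranges and was highest in the top range, while Gimap4 was -0.417, -0.012, 0.253, 0.501 and 0.523. Gimap4 thus differed little between the top pair of ranges relative to an SD over samples of 0.107 in the highest. Gimap1 was 0.399 ± 0.173 (SD, n = 5) in the lowest range and then -0.134, -0.159, -0.190 and -0.233. Its high scores were therefore in cells with the lowest marker scores, -0.25 or less, and the other ranges lay within 1 SD of their neighbours. The cells above 0.5 came to 14.9% of all cells, with 9 in the sample with the fewest, and means over so few cells are less certain.

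**Figure D2:**
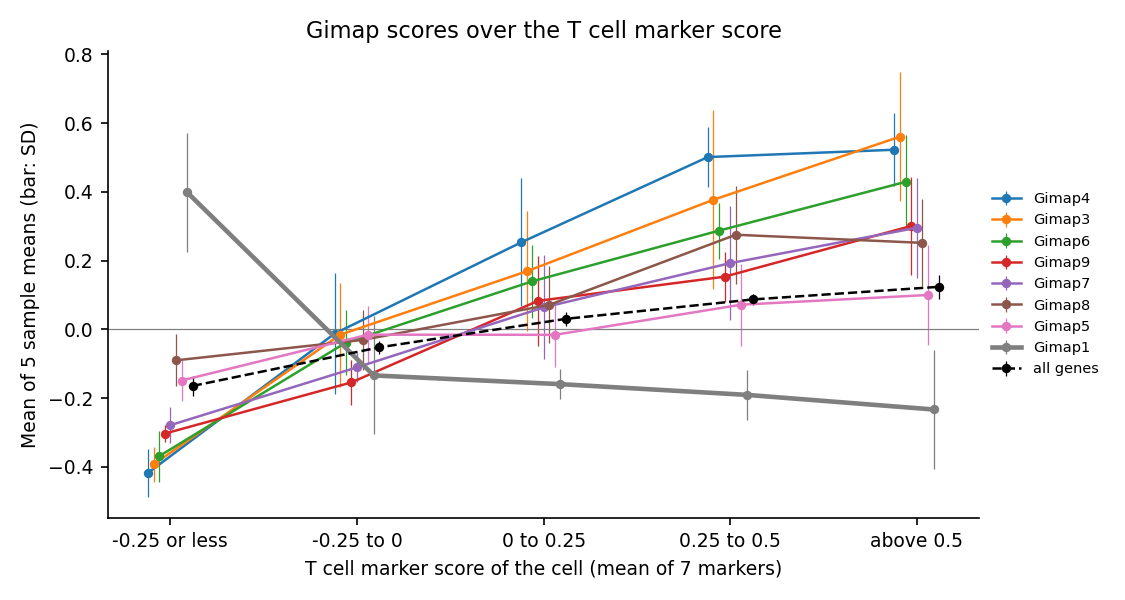
Mean score (y axis; mean of 5 sample means, bar for the SD) of each Gimap gene and of all genes (dashed) over 5 ranges of the T cell marker score (x axis). Gimap1 is at 0.399 in the lowest range and below 0 in the others, while Gimap3, Gimap4 and Gimap6 climb faster than all genes.

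Noncoding-high cells had a mean T cell marker score of -0.366, against 0.177 in other cells, and Gimap1 was high in them. Its mean score in noncoding-high cells was 0.803, 0.644 and 0.602 in trained samples 1, 2 and 3 and 0.572 and 0.562 in untrained samples 1 and 2. In all other cells the means in the same order were -0.160, -0.229, -0.175, -0.196 and -0.241. The difference was 0.837 ± 0.082 (SD, n = 5 samples), positive in 5 of 5 samples and far outside the spread of either class. The class was defined by Kcnq1ot1 and A630089N07Rik, so this is given without a test.

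The other 7 genes were lower in noncoding-high cells than in other cells. The mean differences were -0.638 for Gimap4, -0.581 for Gimap6, -0.577 for Gimap3, -0.375 for Gimap7, -0.309 for Gimap9, -0.207 for Gimap5 and -0.191 for Gimap8. Each was negative in 5 of 5 samples except Gimap5, which was negative in 4. The mean of all genes was also lower, at -0.198 in noncoding-high cells and 0.042 in other cells. Over all cells, Gimap1 had a correlation of 0.530 with the noncoding score and stood at place 75 of 2924 genes, of which 92.5% had a negative correlation.

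**Figure D3:**
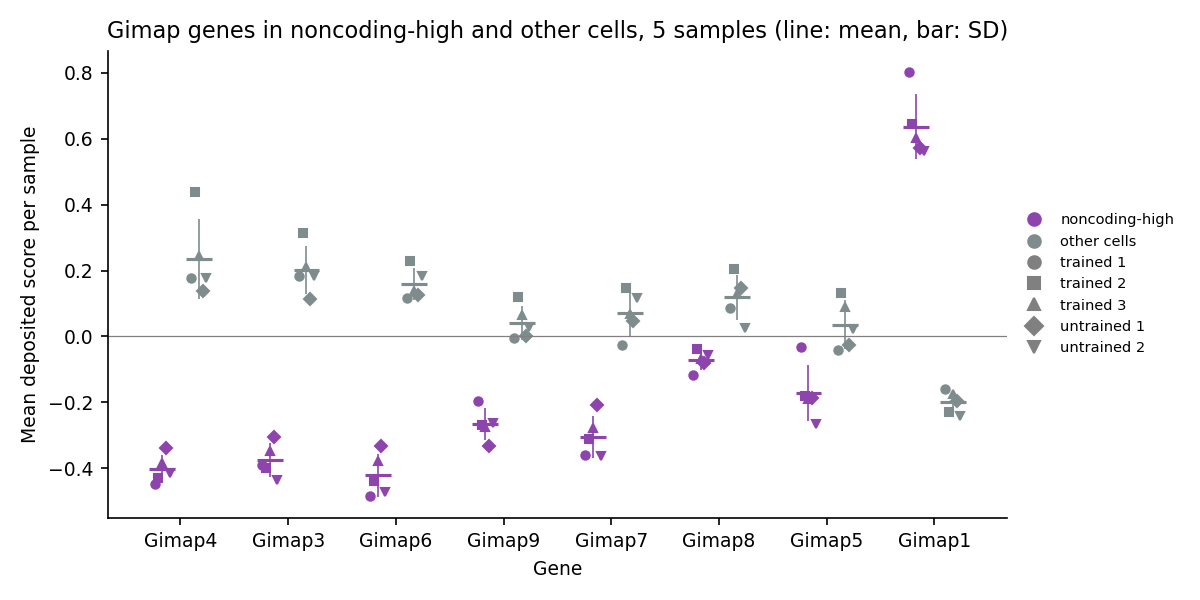
Mean deposited score (y axis) of the 8 Gimap genes (x axis) in noncoding-high cells (purple) and all other cells (grey), with 1 point per sample, a line at the mean and a bar for the SD over 5 samples. Gimap1 lies between 0.562 and 0.803 in noncoding-high cells and between -0.24 and -0.16 in other cells, and the means of the other genes lie lower in noncoding-high cells.

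When the 175 noncoding-high cells were left out, the Gimap1 difference between T marker-positive and T marker-negative cells was -0.014 (limma adjusted p = 0.866) and no longer passed. Gimap5 did not pass either, at 0.071 (limma adjusted p = 0.306). The Gimap1 means in T marker-positive cells were -0.178, -0.236 and -0.208 in trained samples and -0.253 and -0.092 in untrained samples 1 and 2. In T marker-negative cells they were -0.126, -0.204, -0.088, -0.094 and -0.387 in the same order. Gimap1 was thus still lower in T marker-positive cells of every sample but untrained sample 2, where it was higher. Gimap3, Gimap4, Gimap6, Gimap7, Gimap8 and Gimap9 still rose, by 0.301 to 0.591. The share of all genes that passed was then 57.2%, with 54.5% higher and 2.64% lower. Leaving out the 67 myeloid-like cells kept all 8 calls, with Gimap1 at -0.475. Of all 2919 genes, 2757 passed in that setting, 2589 of them higher, so the 7 higher calls are close to the background. Gimap1 was among the few genes that passed as lower.

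Lists of related genes were compared in the same contrast. Of 20 genes of lymphocyte quiescence and survival, 17 were measured. All 17 were higher in T marker-positive cells and 16 passed. Their median difference was 0.384, against 0.203 over all genes. Bcl2, which blocks cell death, rose by 0.542 ± 0.050, Btg1, an anti-proliferative factor, by 0.541 ± 0.045 and Tcf7, which keeps T cells in a naive or memory state, by 0.511 ± 0.051 (SE). Of 14 genes of the ATG8 family and autophagy, 6 were measured and all 6 rose, with a median difference of 0.258. They included Gabarapl2, the binding partner of Gimap6, at 0.316 ± 0.040, its relative Gabarap at 0.332 ± 0.033 and the autophagy receptor Sqstm1 at 0.297 ± 0.033 (SE). Of 12 other GTPases of immune cells, 10 were measured and all 10 rose, with a median difference of 0.264. Rac2, the haematopoietic Rac GTPase, rose by 0.648 ± 0.078, Arl4c by 0.602 ± 0.049 and the guanylate-binding protein Gbp4 by 0.382 ± 0.061 (SE). None of 8 genes near the locus that were listed was measured. These counts too stand beside a background of 83.2% of genes higher.

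Markers of other cells were followed alongside. None of the 8 measured myeloid genes passed between T marker-positive and T marker-negative cells, and their differences ran from -0.225 to -0.027. Both measured oligodendrocyte genes rose with the T cell markers, Mbp by 0.464 ± 0.040 and Cnp by 0.387 ± 0.043 (SE). Their part in the Gimap differences was not tested. None of the listed markers of B cells, NK cells, endothelial cells, astrocytes or neurons was measured here.

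The CD4 and CD8 coreceptors divide T cells into helper and cytotoxic lineages, and they gave a second view of the family that did not use the T cell markers. A cell was CD8-gated when the mean score of Cd8a and Cd8b1 was above 0 and Cd4 was not, and CD4-gated in the reverse case. Of the 692 cells, 23% were CD8-gated and 21.1% CD4-gated, while 57 cells were above both gates and 330 above neither. In cells above at least 1 gate relative to cells above neither, 6 Gimap genes passed as higher and Gimap1 as lower. This split was not independent of the first, and all 7 T cell markers passed as higher in it. The T cell marker score averaged 0.213 in gated and -0.141 in ungated cells. The mean score of Kcnq1ot1 and A630089N07Rik averaged -0.143 and 0.662 in these. The background was 70.8% of 2923 genes passing, 66.4% higher and 4.41% lower, with a median difference over all genes of 0.125. The genes without overlap of the classes were not counted here either.

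Gimap3 had the largest coreceptor difference, with means of 0.241, 0.25 and 0.219 in gated cells of trained samples 1, 2 and 3 and 0.177 and 0.397 in those of untrained samples 1 and 2. In ungated cells the means in the same order were -0.166, -0.089, -0.117, -0.213 and -0.214. The classes did not overlap, and the difference was 0.417 ± 0.042 (SE; limma adjusted p = 5.49e-06). Gimap4 followed at 0.318 ± 0.041, Gimap9 at 0.275 ± 0.041, Gimap6 at 0.251 ± 0.044 and Gimap7 at 0.235 ± 0.042 (SE), each higher in 5 of 5 samples.

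Gimap8 (0.101 ± 0.035; limma adjusted p = 0.0194) and Gimap5 (0.100 ± 0.044; limma adjusted p = 0.0524) had differences below the median of all genes, and Gimap5 did not pass. Gimap1 fell by 0.200 ± 0.042 (SE; limma adjusted p = 0.00104) and was lower in 5 of 5 samples. Its means in gated cells ran from -0.139 to -0.012, and those in ungated cells from 0.0065 to 0.190. Without the noncoding-high cells 4 members passed, Gimap3, Gimap4, Gimap7 and Gimap9, against 26.5% of all genes (26% higher and 0.479% lower), and Gimap1 was at -0.00014. With each cell's mean subtracted, 4 members passed as higher (Gimap3, Gimap4, Gimap6 and Gimap9) and Gimap1 as lower. Gimap7 was at 0.107 and did not pass. Of all genes, 24.7% passed in that setting (14.1% higher and 10.7% lower). Without trained sample 2, without trained sample 3 or without untrained sample 1, the adjusted p of Gimap8 was between 0.0512 and 0.0808, while without trained sample 1 Gimap5 passed at 0.00689. Gimap5 also passed with scores divided by their SD, with samples weighted by cells, without myeloid-like cells and with gates at 0.25, at adjusted p between 0.0124 and 0.0471.

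Between the lineages no Gimap gene passed. Of 2923 genes, 5 did (0.171%), with 4 higher (0.137%) and 1 lower (0.0342%) in CD8-gated cells, and 383 had an unadjusted p under 0.05. Gimap4 had the largest difference of the family, CD8-gated minus CD4-gated, at 0.182 ± 0.058 (SE; limma adjusted p = 0.254, unadjusted p = 0.0066). Its means in CD8-gated cells were 0.249, 0.489 and 0.305 in trained samples 1, 2 and 3 and 0.238 and 0.218 in untrained samples 1 and 2. In CD4-gated cells the means in the same order were 0.107, 0.260, 0.097, 0.0016 and 0.124. Every sample was higher in its CD8-gated cells, by 0.094 to 0.236, and the 2 ranges overlapped across samples.

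Gimap7 (0.118 ± 0.064) and Gimap5 (0.103 ± 0.065) were higher on the CD8 side in 4 of 5 samples, and Gimap9 (-0.095 ± 0.064, SE) was lower in 4 of 5. Gimap6, Gimap8, Gimap3 and Gimap1 had differences of 0.040, 0.016, -0.050 and -0.0024, each smaller than its SE. Beside these, the 8 myeloid genes were lower in CD8-gated cells by 0.043 to 0.397, and the cathepsin gene Ctsb passed at -0.397 ± 0.074 (SE; limma adjusted p = 0.043). The part of the myeloid genes in the Gimap differences was not tested, and without the myeloid-like cells the Gimap4 difference was 0.112. Trained sample 1 had 17 CD8-gated and 16 CD4-gated cells. The 57 cells above both gates had means of 0.520 ± 0.288 for Gimap3, 0.536 ± 0.740 for Gimap9 and -0.257 ± 0.098 for Gimap1 (SD, n = 5 samples), and 1 sample had 2 such cells.

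The family was then compared with itself, by the Pearson correlation of each pair over the cells of a sample, averaged over the 5 samples. The points of each correlation are 66 to 190 cells that share a library and the offset between cells, so no p is given. The 21 pairs among the 7 genes other than Gimap1 had a mean correlation of 0.218, and the mean in single samples ran from 0.17 to 0.254. The median of all 4279275 gene pairs was 0.093, and the 95th percentile was 0.239.

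The closest pair was Gimap3 with Gimap6, at 0.409, with 0.470, 0.428 and 0.386 among its values in single samples and a lowest value of 0.283. Gimap3 with Gimap4 had 0.373 and Gimap4 with Gimap6 had 0.361, and all 3 pairs were positive in 5 of 5 samples and above the 99th percentile of all pairs. Gimap3 with Gimap7 had 0.331 and Gimap3 with Gimap9 had 0.297. Gimap3 thus took part in the 2 highest and 4 of the 5 highest pairs. The neighbours Gimap3 and Gimap5, close paralogs, had only 0.140, and Gimap7 with Gimap8 had the lowest correlation of the 21, 0.067.

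Gimap1 had a mean correlation of -0.150 with the other 7 genes, from -0.208 with Gimap3 and Gimap4 to 0.0072 with Gimap8. Its neighbours on both sides in the locus, Gimap7 and Gimap5, were at -0.152 and -0.139. When the noncoding-high cells were left out, the mean correlation of Gimap1 with the other 7 was 0.041. Single samples then ran from -0.085 to 0.173, so the sign differed between samples. In T marker-positive cells alone, a setting added after the data were seen, the mean was 0.032, with single samples from -0.068 to 0.124. The mean over the 21 other pairs was 0.151 without noncoding-high cells and 0.085 in T marker-positive cells. The median of all gene pairs was 0.038 and 0.019 in these settings. Gimap3 with Gimap6 was still the closest pair in both settings, at 0.305 and 0.278, above the 99th percentile of all pairs in each. With each cell's mean subtracted, the pair had 0.273 and the 21 pairs averaged 0.086, against a median of -0.0019 over all gene pairs.

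**Figure D4:**
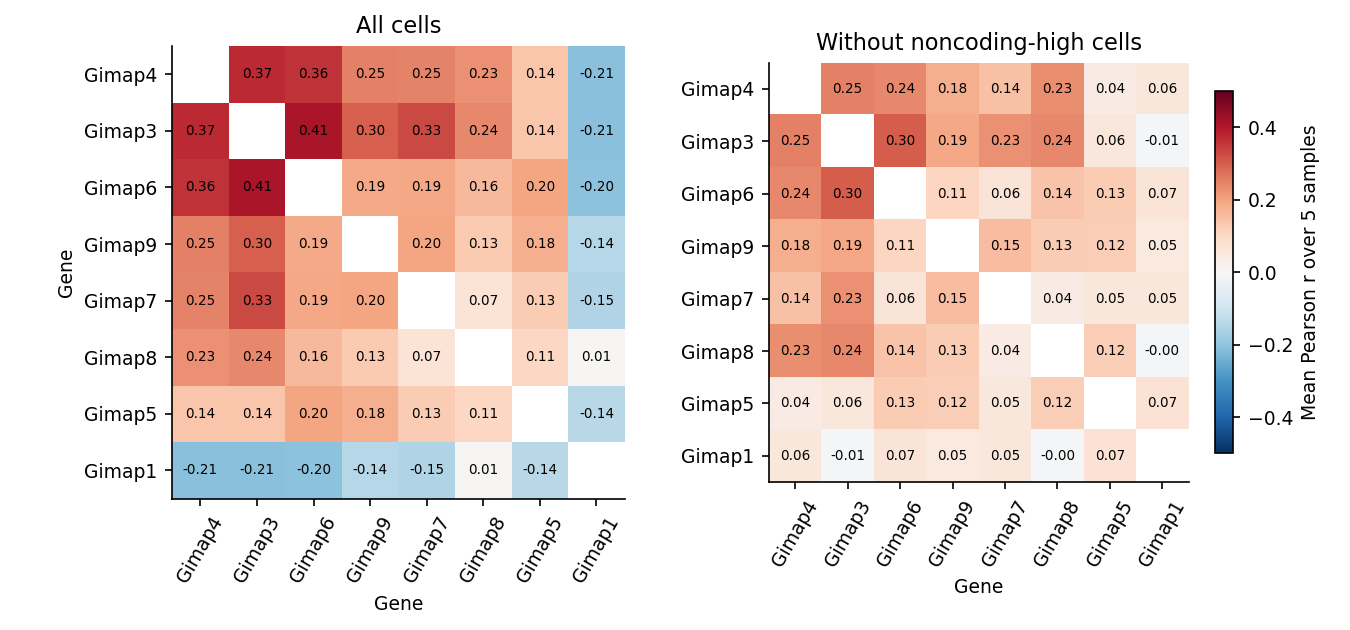
Mean Pearson correlation over cells, averaged over 5 samples, for each pair of Gimap genes in all cells (left) and without noncoding-high cells (right); both axes list the genes, and colour runs from -0.5 (blue) to 0.5 (red). Gimap3 with Gimap6 is the closest pair in both panels (0.409 and 0.305). The negative values of Gimap1 on the left are near 0 on the right, as averages over samples whose signs differed.

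The genes outside the family that varied most like each member fell into different kinds. Gimap1 was closest to Aplf, a DNA repair and histone-binding factor, at 0.698, with a lowest single-sample value of 0.629. It was next closest to Gm10845 (0.614), the lipase gene Lipi (0.613), D830005E20Rik (0.610) and the vomeronasal receptor gene Vmn1r58 (0.609). The 5 nearest genes of Gimap1 were the same with each cell's mean subtracted, and Aplf was then at 0.760.

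Gimap3 was closest to the translation elongation factor Eef1a1 (0.518), Coro1a, an actin-binding coronin of leukocytes (0.514), and the ribosomal genes Rps6 (0.501) and Rpl18 (0.501). Among the genes closest to Gimap4 were Tpt1 (0.551) and the ribosomal genes Rplp1 (0.540), Rpl13a (0.531) and Rps24 (0.527). Gimap6 was closest to the mitochondrially encoded mtCo1 (0.453), Eef1a1 (0.447), the actin gene Actb (0.442), Tpt1 (0.440) and Tmsb10, which binds actin monomers (0.415). Its relative Gimap3 stood sixth among all genes for Gimap6, whereas for Gimap3 the closest family member, Gimap6, stood at place 69.

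The remaining genes had weaker neighbours. Gimap7 was nearest to Rpl19 (0.376), Rpl13a, Coro1a, the T cell surface gene Thy1 (0.352) and the chemokine gene Ccl5 (0.352). Gimap9 was nearest to Rps2 (0.416), Tmsb10, Hsp90ab1, Pabpc1 and mtCo1. Gimap8 was nearest to Atp5c1 (0.282), Rps2, Rpl7, Bcl2 (0.267) and 2310034O05Rik. Gimap5 was nearest to Adrbk1 (0.274), a kinase of G protein-coupled receptors, followed by Serbp1, Papd5, Cox4i1 and Samd3, and the Adrbk1 value was as low as 0.058 in 1 sample. With each cell's mean subtracted, Ccl5 alone of these was still among the 5 nearest genes of Gimap7. Papd5 and Samd3 were still among those of Gimap5, and Atp5c1 and Bcl2 among those of Gimap8. Gimap9 kept Rps2, Hsp90ab1, Tmsb10 and Pabpc1.

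Training was the contrast of the study, and in all sorted cells no gene of the family or of the table passed. The limma test gave 0 of 2926 genes (0%) at an adjusted p of 0.05, with 7.72% of genes at an unadjusted p under 0.05 and a smallest adjusted p of 0.203. Without untrained sample 1, 3 genes passed, none of them a Gimap gene. The trained means of 7 of the 8 Gimap genes were higher than the untrained ones, with a median difference of 0.042, against a median near 0 over all genes. Gimap4 averaged 0.114 ± 0.069 in trained samples and 0.024 ± 0.034 in untrained samples (SD, n = 3 and 2), a difference of 0.090 ± 0.036 (SE; limma adjusted p = 0.559). Its sample means were 0.072, 0.194 and 0.076 in the trained samples, against 0.049 and 0 in the untrained ones.

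Gimap3 had sample means of 0.087, 0.114 and 0.061 in trained samples, against 0.036 and -0.0017 in untrained samples. It differed by 0.070 ± 0.025 (SE; limma adjusted p = 0.518). Gimap5 had -0.041, 0.044 and 0.015 in trained samples, against -0.056 and -0.065 in untrained samples. It differed by 0.066 ± 0.027 (SE; limma adjusted p = 0.563). Trained and untrained sample means did not overlap for 5 members (Gimap1, Gimap3, Gimap4, Gimap5 and Gimap9), all higher in trained samples. Gimap1 and Gimap4 averaged 0 in untrained sample 2, as did 1607 mouse genes in all. For Gimap1 the groups were apart only by 0.00053 in trained sample 1 against that 0. The part of this fixed mean of 0 in the non-overlap was not tested. Over the whole table, 25.1% of genes had sample means that did not overlap and 11% had them higher in trained samples. For Gimap6, Gimap7 and Gimap8 the sample means overlapped, and Gimap7 was the only member lower in trained samples, by 0.016 ± 0.029 (SE).

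**Figure D5:**
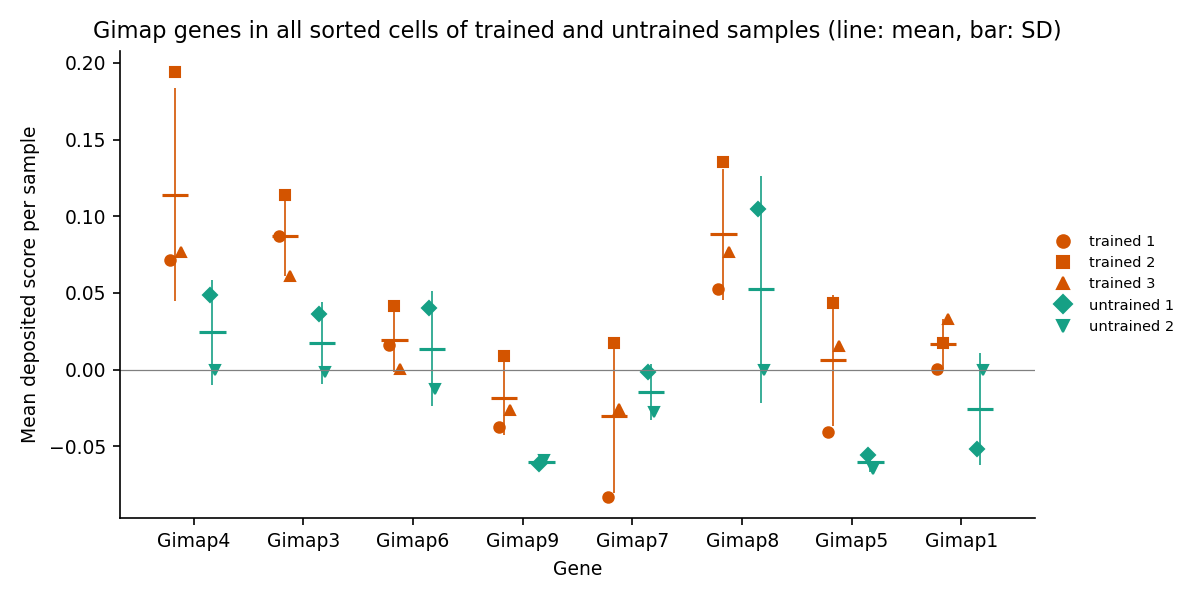
Mean deposited score over all sorted cells (y axis) of the 8 Gimap genes (x axis) in the 3 trained (orange) and 2 untrained samples (green), with a line at the group mean and a bar for the SD. Trained and untrained points are apart for Gimap4, Gimap3, Gimap9, Gimap5 and Gimap1, but no gene passed the test. For Gimap1 the nearest points are 0.00053 in trained sample 1 and 0 in untrained sample 2.

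The make-up of untrained sample 2 differed from that of the other 4 samples, while untrained sample 1 was like the trained ones. Untrained sample 2 held 42 of the 67 myeloid-like cells and had the lowest share of T marker-positive cells. In its 42 myeloid-like cells the 7 genes other than Gimap1 averaged -0.383 and Gimap1 -0.451. Over the 5 samples, the myeloid-like cells averaged -0.154 ± 0.183 for the 7 genes and -0.390 ± 0.123 for Gimap1 (SD). The sample means of the 7 genes ran from -0.383 in untrained sample 2 to 0.069. All 8 measured myeloid genes were lower in trained samples, by 0.075 to 0.154. Without the myeloid-like cells, the training difference of Gimap4 was 0.038, that of Gimap3 0.018, that of Gimap1 0.000041 and that of Gimap9 0.016, while Gimap5 was at 0.045. Without untrained sample 2 as a whole, the training differences were 0.066 for Gimap4, 0.051 for Gimap3, 0.069 for Gimap1, 0.043 for Gimap9 and 0.062 for Gimap5, with untrained sample 1 alone as the untrained group. The scores of Gimap1, Gimap4 and Gimap8 also averaged 0 in untrained sample 2 within 1e-06, as did those of 1607 mouse genes, while the other 5 members shared a highest score of 2.52 there, reached by 7 to 12 cells each. The SD over cells was 0.716 to 0.944 in that sample for the 5, and 0.388 to 0.701 in the other samples. The part of these features of the deposited values in the training differences was not tested.

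Within T marker-positive cells the direction was mixed: 2 members were higher and 6 lower in trained samples, and 0 genes (0%) passed, with 50 genes at an unadjusted p under 0.05. Beside this, the 8 myeloid genes were higher in trained samples in these cells, by 0.098 to 0.201, and their part was not tested. Gimap7 had 0.025, 0.205 and 0.113 in trained samples, against 0.158 and 0.432 in untrained samples. The difference was -0.180 ± 0.085 (SE; limma adjusted p = 0.998). In untrained sample 2, however, the median Gimap7 score of these cells was -0.314, and 41.4% of them were above 0. Gimap4 was at 0.079 ± 0.089 and Gimap3 at -0.10 ± 0.103 (SE). Without untrained sample 1, 145 genes passed, among them Gimap7 (-0.317) and Gimap3 (-0.306), with untrained sample 2 alone as the untrained group and its spread taken from the trained samples. Without untrained sample 2, no gene passed, and Gimap3 and Gimap7 were at 0.105 and -0.043. The signs rested on the untrained sample used and on whether cells were averaged by mean or median. All 8 members were lower in trained samples without untrained sample 1. Gimap1, Gimap3, Gimap4, Gimap5, Gimap6 and Gimap9 were higher without untrained sample 2. With medians over cells and all samples kept, Gimap3 (0.0020), Gimap4 (0.030), Gimap5 (0.112), Gimap6 (0.153), Gimap7 (0.096) and Gimap9 (0.091) were higher. Gimap1 (-0.047) and Gimap8 (-0.062) were lower.

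Training also gave 0 of 2926 genes (0%) within CD8-gated cells and within CD4-gated cells, with 8.92% and 2.43% of genes at an unadjusted p under 0.05. Gimap5 had the largest training difference of the family in CD8-gated cells, 0.17 ± 0.080 (SE; limma adjusted p = 0.551), and -0.031 ± 0.090 (SE) in CD4-gated cells. The difference between these, tested as an interaction, was 0.200 ± 0.127 (SE; limma adjusted p = 0.766), and 0 of 2923 genes (0%) passed that test, with 5.92% at an unadjusted p under 0.05. The Gimap5 difference in CD8-gated cells was 0.086 without untrained sample 1, below those of Gimap4 and Gimap9, and 0.254 without untrained sample 2, and the interaction was 0.094 and 0.307 in these settings. Without untrained sample 1, 8 genes passed for training in CD4-gated cells and 10 for the interaction, none of them a Gimap gene. Gimap4 was at 0.12 ± 0.082 in CD8-gated cells and 0.092 ± 0.090 (SE) in CD4-gated cells. The other 6 members had training differences from -0.057 to 0.106 in CD8-gated cells and from -0.054 to 0.017 in CD4-gated cells.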

How the data were processed

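The deposited table of 2967 rows (2926 mouse genes and 41 spike-ins) holds the authors' score per gene and cell; it is titled a count matrix, but its values are not counts. Per the submitters' processing notes, reads were processed with Cell Ranger; its version, the aligner, genome build, normalisation and integration were not given in the sources used here, and depth is unknown. A second table of 384 columns matched the main one within 5.0e-10 and was left out; 0 columns belonged to no sample. Cells were assigned to samples by the number in their names. Scores were averaged per gene, sample and class of cells and fitted with limma (3.58.1, R 4.3.3) over all mouse genes, with training as the term, or with class as the term and sample as a block; genes that defined a class were left out. Tests were two-sided, adjusted by Benjamini-Hochberg across every gene tested, and called at an adjusted p of 0.05. The fits were tested on simulated data with 200 changed genes. Correlations were computed in Python 3.11.15 (numpy 2.4.6, pandas 2.3.3) within samples and averaged. Named genes were all Gimap genes, the 5 most correlated genes of each (1 is not reported here), and up to 3 genes of each list with the largest difference. The family and the lists were chosen with earlier results of these data known. Alternatives left out each sample, the myeloid-like or the noncoding-high cells, subtracted the cell mean, divided by the SD, took medians, weighted by cells moved the cutoffs to 0.25 or used the CD3 chains alone as T cell markers.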

Additional observations from a re-analysis of the deposited data

How the results depend on the processing

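Trained and untrained samples could not be paired because the replicate numbers only name the samples within each group. Classes of cells were compared within samples. Without noncoding-high cells, 4 in place of 7 members passed in the coreceptor split. Leaving out 1 sample gave 0 to 2 members for training in T marker-positive cells. The mean correlation of the 7 genes was 0.297 by Spearman and 0.086 with the cell mean subtracted. It was 0.151 without noncoding-high cells and 0.085 in T marker-positive cells. In these settings, in the same order, the median over all gene pairs was 0.228, -0.0019, 0.038 and 0.019. The mean correlation of Gimap1 with the 7 genes was 0.041 and 0.032 in the last 2 settings, with single samples on both sides of 0 in each. The last of these was added after the data were seen. The genes passing in the T marker split were 2592, and 1441 with the cell mean subtracted, 1669 without noncoding-high cells and 1669 with medians. In the coreceptor split these were 2070, 723, 775 and 1021. CD8-gated minus CD4-gated cells gave 5, and 10 with the cell mean subtracted, 53 divided by SD, 31 without noncoding-high cells, 1 without myeloid-like cells and 0 with medians. For training with medians, 9 genes passed within CD8-gated cells and 2 within CD4-gated cells, and gates at 0.25 gave 1 within CD8-gated cells, where the main settings gave 0. No Gimap gene was among them in the lineage contrast or in training within lineages. Signs turned for some members. In the T marker split, Gimap5, which passed at 0.162, was -0.047 with the cell mean subtracted and -0.018 with medians. In the coreceptor split it was -0.027 and -0.053 in these settings, and Gimap8, which passed at 0.101, was -0.027 with the cell mean subtracted (limma adjusted p = 0.631). For CD8-gated minus CD4-gated cells, leaving out 1 sample gave Gimap1 a range of -0.116 to 0.056, Gimap3 -0.147 to 0.046 and Gimap8 -0.035 to 0.075. There Gimap1 was 0.024 with the cell mean subtracted and 0.0026 divided by SD, Gimap5 was -0.0078 with medians, Gimap6 and Gimap8 were -0.020 and -0.021 without myeloid-like cells, and Gimap8 was -0.044 with gates at 0.25. For training in all sorted cells, leaving out 1 sample gave Gimap6 -0.021 to 0.032, Gimap7 -0.040 to 0.011 and Gimap8 -0.017 to 0.088. There Gimap6 was -0.010 divided by SD and -0.037 without myeloid-like cells, and with medians Gimap7 was 0.0020 and Gimap9 -0.029. For training in T marker-positive cells, medians gave Gimap3 0.0020, Gimap6 0.153, Gimap7 0.096 and Gimap9 0.091, all below 0 in the main setting. The cause of these changes was not tested. The table gives no counts, so no limit from depth can be stated.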
